A study of Homo sapiens with 8 samples.

Results

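The genes described here are 10 genes outside the serpin family that act in plasminogen activation, coagulation and the first steps of complement. They were chosen by gene symbol, and all 10 were found among the 60659 genes of the count table. They are PLAU, PLAT and PLAUR of plasminogen activation, F2R, F3, THBD, TFPI and TFPI2 of coagulation, and C1R and C1S of complement. RNA libraries were made after removal of ribosomal RNA from SK-N-SH, a human neuroblastoma line, to ask how the chromatin reader ZMYND8 shapes transcription in cells treated with all-trans retinoic acid (ATRA). Each of 4 groups had 2 libraries, described as biological replicates, and every group received 10 µM ATRA for 24 h according to the sample labels.

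The overexpression group carried ZMYND8 in a lentiviral vector that doxycycline (Dox) switches on. According to the methods it was a population of stably transduced cells selected with G418, with no cloning step described. The parental group received Dox as well, but carried no vector, so vector and selection cannot be told apart from ZMYND8 in that comparison. The ZMYND8 knockdown group was compared with its own KD control group, and neither is labelled with Dox. The methods describe knockdown with lentiviral hairpin RNAs for other cells and do not say how it was done in SK-N-SH. The KD control and parental groups differ in experiment and in Dox, which cannot be told apart, and whether KD control cells carried a vector is not given in the sources used here.

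PLAU (urokinase) and PLAT (tissue plasminogen activator) are secreted serine proteases that turn plasminogen into plasmin, which digests fibrin and extracellular matrix, and PLAUR holds urokinase at the cell surface. Tissue factor (F3) starts coagulation by binding factor VII, TFPI blocks that complex, and thrombin formed downstream signals through the receptor F2R or is redirected by thrombomodulin (THBD) to activate protein C. C1R and C1S are the proteases of the first complement component, and in the nervous system tissue plasminogen activator, thrombin receptors and complement are known for roles in neurite outgrowth and synapse remodelling.

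Total counts per library ranged from 38316523 to 56256979. ZMYND8 itself was at 72.7 and 69.9 CPM (counts of a gene scaled to a fixed library total) in parental cells and at 4100 and 4153 CPM with overexpression. It was at 59.5 and 61.0 CPM in KD control cells and at 31.3 and 31.5 CPM with knockdown, so the message was reduced and not lost. Its log2 fold changes were 5.87 (SE 0.0596, adjusted p = 5.04e-12) with overexpression and -0.94 (SE 0.0556, adjusted p = 2.20e-06) with knockdown by edgeR. The neuroblastoma label was checked against 15 adrenergic and 15 mesenchymal markers. PHOX2A, HAND2, GATA3 and the mesenchymal marker VIM were present in parental cells at means of 105, 109.8, 38.5 and 2204 CPM. TH, which defines catecholamine synthesis, had 0 to 5 counts in any library.

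Fold changes were tested with edgeR's quasi-likelihood test and adjusted over all genes tested by Benjamini-Hochberg. A gene was called where the adjusted p was below 0.05, the log2 fold change was at least 1 in size and the mean normalised count exceeded 20. CPM values were scaled by TMM over the 8 libraries. Levels of different genes are compared only as CPM per kilobase of exon, called the per-kilobase level.

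The promoters of PLAU, PLAUR, TFPI and F3 are shown because these genes were called in the overexpression or the knockdown comparison. The windows are from RefSeq on GRCh38.p14 and run from 250 bases before to 50 bases after the annotated start, 5′ to 3′ on the strand of the gene. Such windows were found for 6 of the 10 genes, 8 windows in all, and PLAT, F2R, THBD and C1S had no entry that was used. The motifs below were searched on both strands, and capitals mark every match. They were TGANTCA of the AP-1 factors and GGGCGG of the SP factors, the TATA box as TATAAA, and the retinoic acid receptor half-site AGGTCA.
PLAU, chr10:73910882-73911181, plus strand: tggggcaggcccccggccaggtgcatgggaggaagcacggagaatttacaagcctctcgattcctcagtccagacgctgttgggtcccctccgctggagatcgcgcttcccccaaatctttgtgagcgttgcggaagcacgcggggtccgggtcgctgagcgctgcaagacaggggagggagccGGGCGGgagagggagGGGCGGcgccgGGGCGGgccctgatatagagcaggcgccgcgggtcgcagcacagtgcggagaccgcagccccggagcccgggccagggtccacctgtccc
PLAUR, chr19:43670120-43670419, minus strand: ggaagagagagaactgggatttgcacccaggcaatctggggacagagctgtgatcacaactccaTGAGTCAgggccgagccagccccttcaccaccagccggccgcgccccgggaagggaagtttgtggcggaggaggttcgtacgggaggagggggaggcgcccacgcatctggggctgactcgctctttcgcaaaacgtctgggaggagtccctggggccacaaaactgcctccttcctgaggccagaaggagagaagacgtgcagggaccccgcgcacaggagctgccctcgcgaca
TFPI, chr2:187554386-187554685, minus strand: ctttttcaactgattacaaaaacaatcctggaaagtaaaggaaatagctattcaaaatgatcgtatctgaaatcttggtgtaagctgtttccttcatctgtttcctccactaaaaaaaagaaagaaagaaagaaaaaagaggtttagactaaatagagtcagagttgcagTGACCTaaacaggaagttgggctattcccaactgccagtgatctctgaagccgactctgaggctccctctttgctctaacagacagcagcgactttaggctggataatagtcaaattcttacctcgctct
F3, chr1:94541710-94542009, minus strand: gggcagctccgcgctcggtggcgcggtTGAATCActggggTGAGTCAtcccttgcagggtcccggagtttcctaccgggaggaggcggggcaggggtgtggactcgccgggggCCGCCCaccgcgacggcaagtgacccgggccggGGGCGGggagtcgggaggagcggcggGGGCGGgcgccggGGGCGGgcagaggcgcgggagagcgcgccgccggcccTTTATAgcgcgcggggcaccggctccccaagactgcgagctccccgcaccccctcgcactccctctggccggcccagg

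Among all 35116 promoters of this length, GGGCGG is present in 45.0%, while AGGTCA is present in 13.8%. TATAAA is present in 11.5% and TGANTCA in 7.71%. The PLAU window holds 3 copies of GGGCGG, at positions -66, -51 and -40 from the start, and its other window holds none of the motifs. The PLAUR window holds a single TGANTCA match at -186. The F3 window holds TGANTCA matches at -223 and -210, 4 copies of GGGCGG and a TATA box at -28, the last read on the other strand. The TFPI window holds a single AGGTCA at -80 on the other strand, and at 39.3% it had the lowest GC content of the 8, against a median of 58.7% over all promoters. The TFPI2 window holds 1 TGANTCA and 2 GGGCGG matches, and the C1R windows hold none. The matches are a description of the letters and do not show that a factor binds there.

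In parental cells PLAT and PLAU were among the most abundant messages of the line. Their per-kilobase levels were 426 ± 10.6 and 287 ± 20.1 (SD, n = 2). These lie at percentiles 99.8 and 99.7 of the 22619 genes tested over all 8 libraries. F2R followed at 168 ± 2.66 (SD, n = 2), percentile 99.4. TFPI2 and PLAUR were at 18.7 ± 2.05 and 12.2 ± 0.338 (SD, n = 2). The other members were low, with C1R at 4.33 ± 0.114, C1S at 2.62 ± 0.116, TFPI at 2.19 ± 0.349, F3 at 1.53 ± 0.232 and THBD at 1.21 ± 0.0860 (SD, n = 2). Neighbours in this order were separated by more than the sum of their SDs, apart from C1S and TFPI and from F3 and THBD.

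With ZMYND8 overexpression both plasminogen activators, the urokinase receptor, the thrombin receptor and TFPI fell. Of the 10 genes, 5 were called lower and none higher, namely PLAT, TFPI, PLAU, F2R and PLAUR, with falls of 7.68-fold, 7.26-fold, 6.10-fold, 5.21-fold and 2.20-fold. Over all 20835 genes tested, 6.84% were called lower and 11.8% higher. All 10 log2 fold changes were below 0, with a median of -1.02 against 0.03 over all genes tested. By adjusted p alone 9 of the 10 were lower, and of all genes 29.1% were lower and 31.7% higher by that rule. C1S was the weakest of the 9, and its adjusted p was 0.0542 without parental replicate 2.

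With knockdown the same genes did not move as 1 group. F3 rose by 2.19-fold and THBD by 4.34-fold, and no member was called lower. Over all 19789 genes tested, 1.36% were called higher and 0.596% lower. By adjusted p alone 4 members were higher (F3, THBD, TFPI and TFPI2) and 4 lower (PLAT, F2R, C1R and C1S), and of all genes 13.4% were higher and 10.8% lower by that rule. The median log2 fold change of the 10 was -0.01, the same as that of all genes tested to 2 decimals. In bulk RNA, fewer cells of a type and less RNA per cell cannot be told apart in either experiment.

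**Figure D1:**
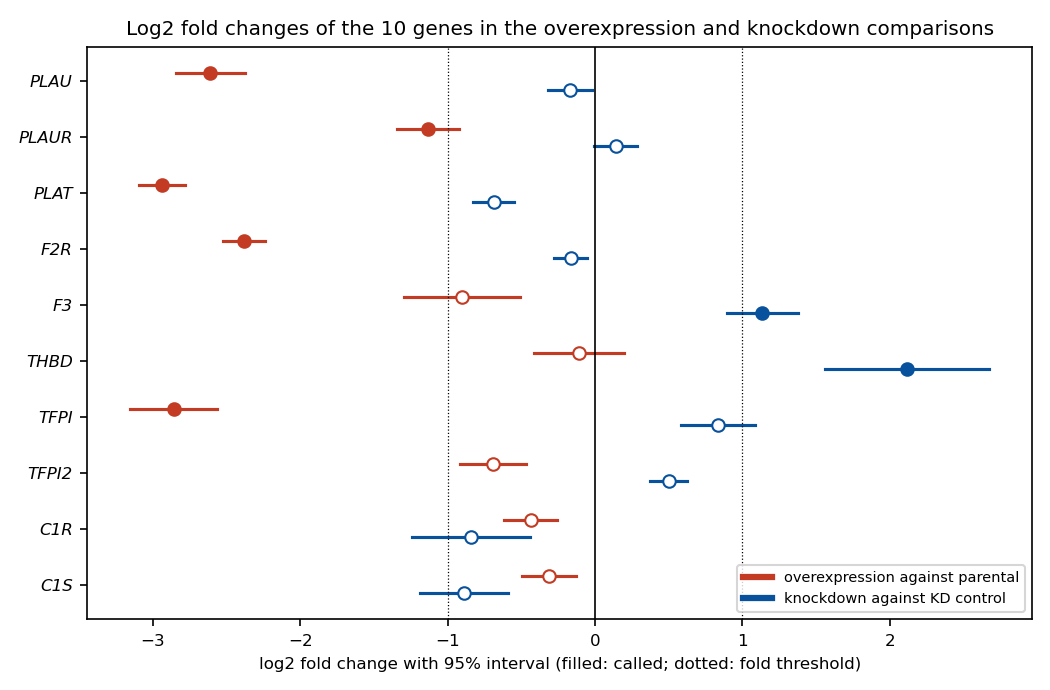
Log2 fold change (x axis) of each of the 10 genes (rows) with its 95% interval, in ZMYND8 overexpression against parental cells (red) and in knockdown against KD control (blue). Filled points passed all thresholds and dotted lines mark the fold threshold. The red points all lie below 0, from -2.94 for PLAT to -0.11 for THBD, and the blue points lie on both sides of 0, from -0.89 for C1S to 2.12 for THBD.

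PLAT, at chromosome 8, 42174718 to 42207709 on the minus strand, fell by about as much as TFPI with overexpression, and their 95% intervals overlapped. It was at 3250.1 and 3367 CPM in parental cells and at 457 and 399.8 CPM with overexpression. The groups were far apart, and the log2 fold change was -2.94 (SE 0.0699, 95% interval -3.10 to -2.78, adjusted p = 1.87e-10 by edgeR). In the knockdown experiment PLAT was at 1830.2 and 1686 CPM in KD control cells and at 1131.5 and 1049.8 CPM with knockdown. These groups did not overlap either, and the log2 fold change of -0.69 (SE 0.0629, adjusted p = 3.46e-05) was below the fold threshold. PLAT thus passed the adjusted p in the same direction in both experiments.

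PLAU, at chromosome 10, 73909177 to 73917496 on the plus strand, was at 803 and 887 CPM in parental cells and at 155 and 120.2 CPM with overexpression. The log2 fold change was -2.61 (SE 0.104, 95% interval -2.84 to -2.38, adjusted p = 6.91e-09 by edgeR). With knockdown PLAU was at 699 and 657 CPM against 814 and 716 CPM in KD control cells. The groups did not overlap, yet the log2 fold change of -0.17 (95% interval -0.32 to -0.02, adjusted p = 0.0925) did not pass the test. Of the exon bases of PLAU, 31.03% lie opposite C10orf55, and the strand setting of the counting is not given in the sources used here. C10orf55 had at most 1150 counts in any library, where PLAU had at least 5294. Its log2 fold change with overexpression was -2.76 (adjusted p = 1.65e-08).

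PLAUR, at chromosome 19, 43646095 to 43670547 on the minus strand, encodes the urokinase receptor. It was at 53.2 and 55.4 CPM in parental cells and at 27.5 and 21.5 CPM with overexpression, a log2 fold change of -1.13 (SE 0.0952, 95% interval -1.35 to -0.92, adjusted p = 2.24e-06 by edgeR). The groups did not overlap, but the value lay close to the fold threshold, and without overexpression replicate 2 it was -0.97. In the knockdown experiment PLAUR was at 45.2 and 41.2 CPM in KD control cells and at 49.3 and 45.8 CPM with knockdown. That log2 fold change was 0.14 (95% interval -0.01 to 0.29, adjusted p = 0.154).

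The balance of the activators differed between groups as well. The ratio of the per-kilobase levels of PLAT and PLAU was 1.54 and 1.44 in parental libraries, 1.12 and 1.26 with overexpression, 0.854 and 0.894 in KD control and 0.614 and 0.606 with knockdown. The 4 groups did not overlap in this ratio, and the order from parental to knockdown is a description of these libraries without a test.

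**Figure D2:**
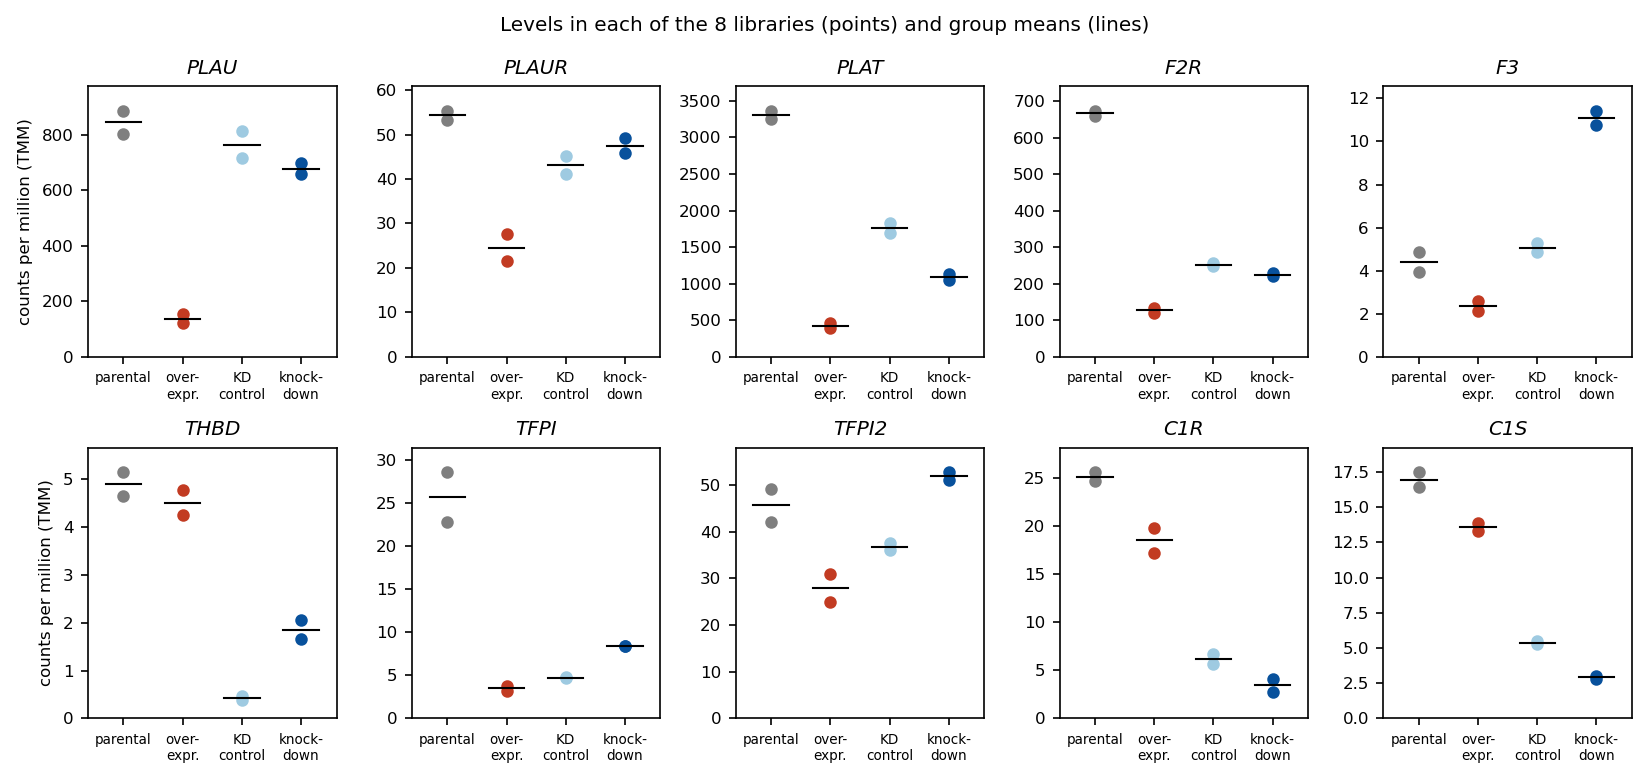
TMM-scaled CPM (y axis, from 0, scaled separately for each gene) of the 10 genes in the 8 libraries (points) with the mean of each group (lines). PLAU, PLAUR, PLAT and F2R are lowest with ZMYND8 overexpression, F3 is highest with knockdown, and THBD is lowest in KD control cells at 0.476 and 0.379 CPM.

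F2R, at chromosome 5, 76716126 to 76735770 on the plus strand, encodes PAR1, the main receptor through which thrombin signals to cells. It was at 659.9 and 675 CPM in parental cells and at 135 and 119 CPM with overexpression. The log2 fold change was -2.38 (SE 0.0645, 95% interval -2.52 to -2.24, adjusted p = 4.62e-10 by edgeR). In KD control cells it was at 257 and 249 CPM and with knockdown at 229 and 221 CPM. These groups did not overlap, with a log2 fold change of -0.17 (SE 0.0503, adjusted p = 0.0364). That adjusted p ran from 0.0103 to 0.202 over the other settings tried, and it was 0.152, 0.0947 and 0.202 without KD control replicate 1, KD control replicate 2 and knockdown replicate 2.

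F3, at chromosome 1, 94529173 to 94541759 on the minus strand, is the gene of tissue factor. It had 167 and 252 counts in parental cells, or 3.93 and 4.87 CPM, and 114 counts in each overexpression library, or 2.12 and 2.59 CPM. The groups did not overlap, and the log2 fold change of -0.90 (SE 0.177, 95% interval -1.30 to -0.51, adjusted p = 0.00122 by edgeR) was just below the fold threshold. Without parental replicate 1 it was -1.06, and without overexpression replicate 2 it was -1.04. With knockdown F3 was at 11.4 and 10.7 CPM against 5.27 and 4.86 CPM in KD control cells. Both knockdown libraries were above the other 6 libraries, and the log2 fold change was 1.13 (SE 0.109, 95% interval 0.89 to 1.38, adjusted p = 4.78e-05).

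THBD, at chromosome 20, 23045633 to 23049672 on the minus strand, encodes thrombomodulin. It had 25 and 21 counts in KD control cells and 108 and 86 counts with knockdown, or 0.476 and 0.379 CPM against 2.06 and 1.65 CPM. The groups did not overlap, and the log2 fold change was 2.12 (SE 0.251, 95% interval 1.56 to 2.67, adjusted p = 0.000188 by edgeR). The mean normalised count of this comparison was 60.7, so the fold rests on a small number of reads. In the overexpression experiment THBD was at 5.15 and 4.66 CPM in parental cells and at 4.78 and 4.25 CPM with overexpression. These groups overlapped, and the log2 fold change was -0.11 (95% interval -0.41 to 0.20, adjusted p = 0.524), an interval that leaves out a change as large as that of PLAU.

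TFPI, at chromosome 2, 187464230 to 187565760 on the minus strand, encodes the inhibitor of the complex of tissue factor and factor VIIa. It was at 28.6 and 22.8 CPM in parental cells and at 3.77 and 3.20 CPM with overexpression, a log2 fold change of -2.86 (SE 0.132, 95% interval -3.15 to -2.57, adjusted p = 1.99e-08 by edgeR). The groups were far apart. By per-kilobase level TFPI went from percentile 53.2 to percentile 22.5 of the 22619 genes tested over all 8 libraries. With knockdown it was at 8.38 and 8.41 CPM against 4.66 and 4.75 CPM in KD control cells. That log2 fold change of 0.84 (SE 0.113, adjusted p = 0.000428) was below the fold threshold. Of the 31-base sequences of its exons, 26.6% occur more than once outside the alternate contigs of the genome, the largest share among the 10, and reads from these may not have been counted.

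TFPI2, at chromosome 7, 93885396 to 93890753 on the minus strand, is a related inhibitor of plasmin and other proteases that is secreted into the matrix. It was at 49.2 and 42.1 CPM in parental cells and at 30.9 and 24.9 CPM with overexpression, a log2 fold change of -0.69 (SE 0.100, adjusted p = 0.000147 by edgeR). With knockdown it was at 51.1 and 52.8 CPM against 37.5 and 36.1 CPM, a log2 fold change of 0.50 (SE 0.0562, adjusted p = 0.000133). Neither pair of groups overlapped, and both values were below the fold threshold.

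The ratio of the per-kilobase levels of TFPI2 and TFPI was 8.26 and 8.87 in parental libraries and 39.3 and 37.3 with overexpression. It was 38.6 and 36.4 in KD control and 29.2 and 30.1 with knockdown, so parental cells stood apart from the other 3 groups. The ratio of F3 and TFPI was 0.558 and 0.868 in parental libraries, 2.28 and 3.28 with overexpression, 4.59 and 4.15 in KD control and 5.54 and 5.19 with knockdown. These ratios are given without a test.

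**Figure D3:**
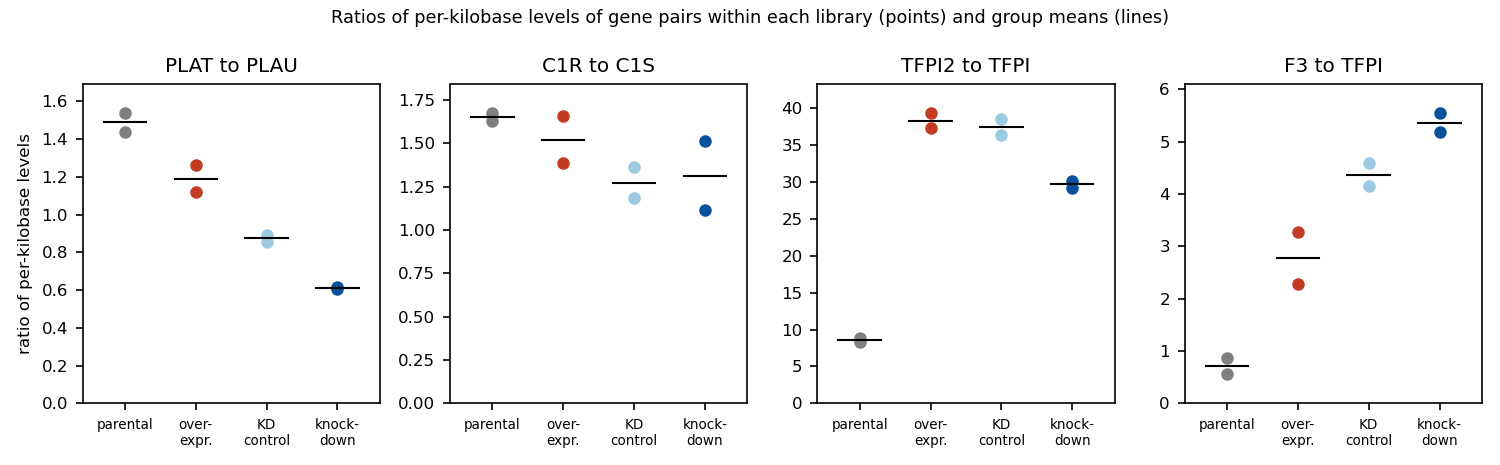
Ratios of per-kilobase levels (y axis, from 0) of 4 pairs of genes within each library (points), with the mean of each group (lines). The ratio of PLAT and PLAU is highest in parental libraries at 1.54 and 1.44, and the ratio of TFPI2 and TFPI is lowest there at 8.26 and 8.87.

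C1R, at chromosome 12, 7080214 to 7092540 on the minus strand, and C1S, at chromosome 12, 6988259 to 7071032 on the plus strand, are neighbours whose products work as 1 complex. C1R was at 24.7 and 25.6 CPM in parental cells and at 17.2 and 19.8 CPM with overexpression. C1S was at 16.4 and 17.5 CPM in parental cells and at 13.8 and 13.3 CPM with overexpression. Neither pair of groups overlapped, and the log2 fold changes of -0.44 for C1R (SE 0.0812, adjusted p = 0.000887) and -0.31 for C1S (SE 0.0822, adjusted p = 0.00737 by edgeR) were the smallest that passed the adjusted p.

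In KD control cells C1R was at 5.61 and 6.70 CPM and C1S at 5.29 and 5.47 CPM. With knockdown C1R was at 2.79 and 4.09 CPM and C1S at 2.79 and 3.01 CPM. The groups did not overlap, and the log2 fold changes were -0.84 for C1R (SE 0.181, adjusted p = 0.00686) and -0.89 for C1S (SE 0.136, adjusted p = 0.000935 by edgeR). The knockdown replicates of C1R were uneven. Its log2 fold change was -1.14 without knockdown replicate 2 and -0.59 without knockdown replicate 1, and its adjusted p was 0.0741 without KD control replicate 2. The ratio of the per-kilobase levels of C1R and C1S stayed between 1.11 and 1.67 over all 8 libraries. It was 1.67 and 1.63 in parental libraries, 1.38 and 1.66 with overexpression, 1.18 and 1.36 in KD control and 1.11 and 1.51 with knockdown. Overexpression overlapped with parental in this ratio, and knockdown with KD control, while parental lay above KD control and knockdown. Of the exon bases of C1R, 11.6% are shared with C1RL on the same strand, whose log2 fold change with knockdown was -0.62 (adjusted p = 0.000604). The C1S exons share 3.54% with EMG1, whose log2 fold change with knockdown was 0.04 (adjusted p = 0.706).

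Whether the effects of overexpression and knockdown differed was tested for each gene as the difference of both log2 fold changes, in a model over all 8 libraries. Of the 10 genes, 8 were called lower in this difference and none higher, where 7.66% of all 22619 genes tested were called lower and 11.1% higher. The differences were -3.71 for TFPI (SE 0.179, adjusted p = 2.71e-10), -2.45 for PLAU, -2.26 for PLAT, -2.23 for THBD, -2.22 for F2R, -2.05 for F3, -1.28 for PLAUR and -1.20 for TFPI2. For C1S the difference was 0.57 (95% interval 0.26 to 0.88, adjusted p = 0.00468), since the fall with knockdown was the larger one. For C1R it was 0.40 (95% interval -0.03 to 0.82, adjusted p = 0.112), an interval that includes 0. For TFPI, F3 and TFPI2 the log2 fold changes were below 0 with overexpression and above 0 with knockdown, each with an adjusted p below 0.05. PLAT, F2R, C1R and C1S were below 0 in both experiments with such an adjusted p. The knockdown values of PLAU, PLAUR and F2R were -0.17, 0.14 and -0.17, so their differences mostly repeat the fall with overexpression. That of THBD mostly repeats its rise with knockdown. ZMYND8 itself rose by 58.3-fold with overexpression and fell by 1.91-fold with knockdown, the latter below the fold threshold.

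The levels of several members differed between both control groups. In KD control against parental cells 5 of the 10 genes were called lower and none higher, while 10.8% of all genes tested were called lower and 10.8% higher. THBD was lower by 11.4-fold (log2 fold change -3.51, SE 0.208, adjusted p = 8.82e-08 by edgeR), TFPI by 5.42-fold, C1R by 4.06-fold and C1S by 3.13-fold. F2R had a log2 fold change of -1.39 (adjusted p = 1.58e-09) and PLAT one of -0.90 (adjusted p = 1.33e-07). PLAU and F3 overlapped between the control groups, with log2 fold changes of -0.14 (adjusted p = 0.102) and 0.21 (adjusted p = 0.244). This comparison shares the parental libraries with the overexpression comparison and the KD control libraries with the knockdown comparison. The rise of THBD with knockdown therefore started from a group in which the gene was at percentile 15.6. It ended at percentile 32.6, below the 45.7 of parental cells. These percentiles are among the 22619 genes tested over all 8 libraries.

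Other genes of these pathways were read from lists of plasminogen activation and fibrinolysis, coagulation, and complement. Of 22 listed fibrinolysis partners, 17 were tested with overexpression, of which 5 were called higher and 5 lower, with a median log2 fold change of -0.60. Over all genes tested with overexpression, 11.8% were called higher and 6.84% lower, with a median of 0.03. SERPINB2 (-5.47), an inhibitor of the plasminogen activators, fell, and so did THBS1 (-2.44). VTN (3.95), the matrix and plasma protein vitronectin, rose together with the lipoprotein receptor VLDLR (1.46) and F12 (1.13), as log2 fold changes. In KD control against parental cells the values were -3.56 for SERPINB2, -0.74 for THBS1, 0.66 for VTN, 0.86 for VLDLR and -0.30 for F12.

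The substrate PLG was at 0 in all 8 libraries. The clearance receptor LRP1 had a log2 fold change of -0.60 (adjusted p = 2.26e-05) with overexpression and 0.05 (adjusted p = 0.620) with knockdown. In KD control against parental cells it was -1.05. With knockdown 1.36% of all genes tested were called higher and 0.596% lower. Of 16 fibrinolysis partners tested there, 1 was called, SERPINI1 (neuroserpin, an inhibitor of tissue plasminogen activator), with a log2 fold change of -1.27 (adjusted p = 9.04e-05). It was at 8.16 and 7.98 CPM in KD control cells and at 2.997 and 3.67 CPM with knockdown.

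Of 33 listed coagulation genes, 17 were tested with overexpression, of which 3 were called higher and 3 lower, with a median log2 fold change of -0.37. The shares over all genes tested were 11.8% higher and 6.84% lower, with a median of 0.03. The protease-activated receptors F2RL2 (-3.45) and F2RL1 (-2.89) fell beside F2R. SERPINA5 (2.66), the protein C inhibitor, and F10 (1.45) rose, as log2 fold changes. F7, the partner of tissue factor, had 4 and 2 counts in parental cells and 57 and 47 with overexpression, a log2 fold change of 4.01 (adjusted p = 1.46e-05). These genes also differed in the same direction between the control groups. In KD control against parental cells the values were -0.53 for F2RL2, -2.74 for F2RL1, 1.46 for SERPINA5, 0.61 for F10 and 3.15 for F7. Prothrombin (F2) had 0 to 5 counts and protein C (PROC) 0 to 4 counts in any library. The protein C receptor PROCR had log2 fold changes of -0.80 (adjusted p = 0.000117) with overexpression and 0.32 (adjusted p = 0.0203) with knockdown. With knockdown none of 16 coagulation genes tested was called, with a median of -0.01. At 1.36% of all genes called higher and 0.596% lower, few calls or none are found in a list of this size.

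Of 48 listed complement genes, 27 were tested with overexpression, of which 8 were called higher and 6 lower, with a median log2 fold change of 0.66. The shares over all genes tested were 11.8% higher and 6.84% lower, with a median of 0.03. C7 (3.54), a part of the membrane attack complex, the lectin COLEC11 (3.48) and CSMD2 (5.21) rose. The lectin COLEC10 (-2.85) and the receptor C3AR1 (-2.21) fell, as log2 fold changes. SERPING1, the inhibitor of C1R and C1S, had 149 and 161 counts in parental cells and 614 and 559 with overexpression, a log2 fold change of 1.88 (adjusted p = 2.85e-07). Of the partners of C1R and C1S, C1QA, C1QB, C1QC and the substrate C2 were at 0 in all 8 libraries. C4A had 40 and 14 counts with overexpression and at most 2 elsewhere, which is uncertain because C4A and C4B are near-identical copies. C3 had log2 fold changes of 3.04 (adjusted p = 9.11e-06) with overexpression and 0.67 (adjusted p = 0.0205) with knockdown. The control groups differed in the same direction. In KD control against parental cells the values were 3.29 for C7, 2.73 for COLEC11, 1.96 for CSMD2 and -6.80 for COLEC10. They were -0.87 for C3AR1, 1.15 for SERPING1 and 3.77 for C3. With knockdown none of 22 complement genes tested was called, with a median of 0.02. At 1.36% of all genes called higher and 0.596% lower, few calls or none are found in a list of this size.

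**Figure D4:**
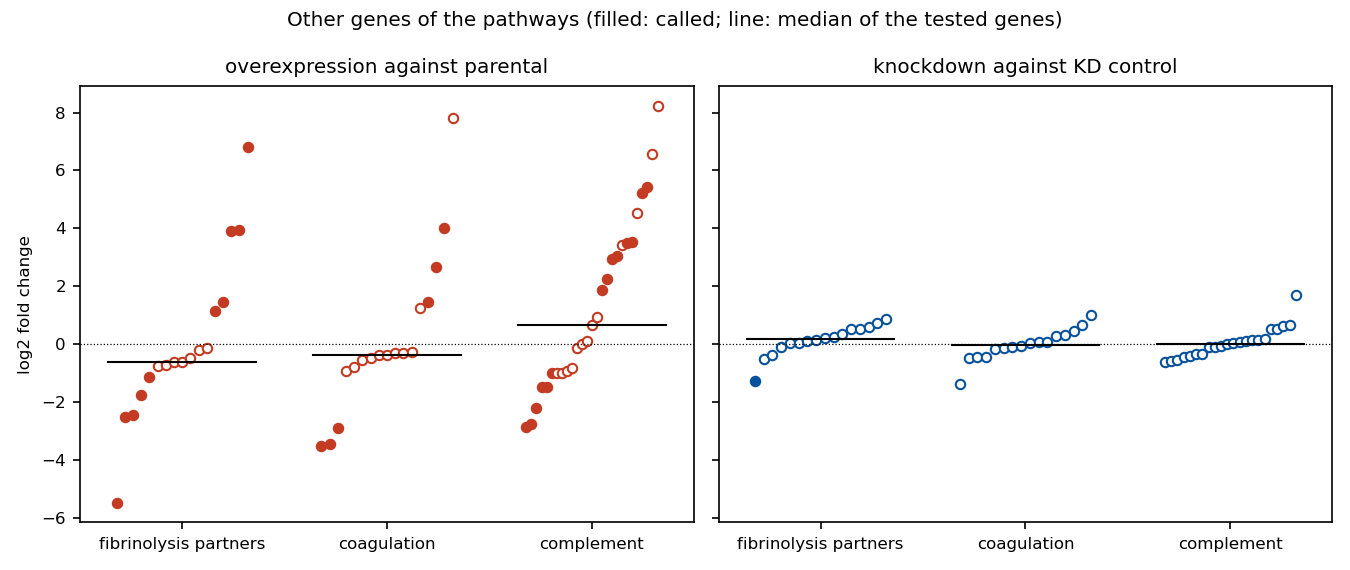
Log2 fold changes (y axis) of the tested genes of the 3 pathway lists, sorted within each list, with overexpression (left, 17, 17 and 27 genes) and with knockdown (right, 16, 16 and 22 genes). Filled points passed all thresholds, open points far from 0 have low counts, and lines mark the medians, which were -0.60, -0.37 and 0.66 on the left.

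Markers of cell states differed between overexpression and parental cells, and also between both control groups. The summed level of the 15 mesenchymal markers was 13812 to 14651 CPM in parental cells, 5005 to 5125 CPM with overexpression, 7355 to 7450 CPM in KD control cells and 8615 to 9076 CPM with knockdown. Of 14 tested with overexpression, 8 were called lower and 1 higher, with a median log2 fold change of -1.37, and MEOX2 was at 0 or 1 count. In KD control against parental cells 6 of 14 were called lower and 1 higher, with a median of -0.74. The summed level of the 15 adrenergic markers was 648 to 671 CPM in parental cells, 1575 to 1651 CPM with overexpression, 1361 to 1432 CPM in KD control cells and 1065 to 1214 CPM with knockdown. Of 14 tested with overexpression, 10 were called higher and 1 lower, with a median log2 fold change of 2.53. In KD control against parental cells 10 of 13 were called higher and 1 lower, with a median of 2.87. Over all genes tested, 11.8% were called higher and 6.84% lower with overexpression. Between the control groups 10.8% were called higher and 10.8% lower. None of either list was called with knockdown, where 1.36% of all genes tested were called higher and 0.596% lower. At these shares few calls or none are found in lists of this size. The part of these states in the values of the 10 genes was not tested.

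THBD and TFPI are also known from endothelium, and C1Q from macrophages. Of 6 endothelial markers tested with overexpression, 2 were called higher and 2 lower. The summed level of the 8 listed was 25.7 to 26.7 CPM in parental cells, 29.5 to 32.3 CPM with overexpression, 14.3 to 15.7 CPM in KD control cells and 11.995 to 13.9 CPM with knockdown, and most of it was EGFL7. CDH5, which defines endothelium, had 0 to 2 counts in any library. The 9 macrophage markers summed to at most 2.49 CPM, with AIF1 and TYROBP at 0 in every library, and the 6 hepatocyte markers to at most 0.250 CPM. The 6 Schwann cell markers summed to 2.59 to 2.73 CPM in parental cells and 8.55 to 9.36 CPM with overexpression, and SOX10 was at or near 0.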

How the data were processed

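Per the labels and methods, the authors deposited raw counts of reads per gene, not normalised, with the summed exon length of each gene. Paired reads were trimmed (Trim_Galore), mapped to GRCh38 (Hisat2) and assigned to genes of GENCODE release 28 (featureCounts). The strand setting is not given in the sources used here. Of 60662 lines, 3 of a split gene were left out. GENCODE release 44, which contains 60418 identifiers of the table, gave the symbols. No exon lengths were taken from release 44, so the release behind the table was not tested and is unclear.

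In each comparison, genes were filtered with filterByExpr and scaled by TMM. The quasi-likelihood test of edgeR 4.0.16 (with limma 3.58.1 in R 4.3.3), two-sided, was fitted on all genes and checked on simulated counts. The simulation had a single fixed spread and as many rises as falls, unlike these data. It checks the code and not the error rate here. Alternatives were RLE and upper quartile scaling, no filter, DESeq2 (1.42.0), a fit of 8 libraries, the replicate number as a block, a gene length correction (loess, span 0.5), other thresholds and leaving out each library. Replicates differed by more than counting noise.

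The 10 genes, the lists and the tests were chosen with earlier results of these data known. Named genes are the 10, ZMYND8, the defining partners, and from each list the 3 called genes with the largest change in either direction among those with a mean above 100 whose groups did not overlap. C10orf55, C1RL and EMG1 were added after their overlap was seen. Some genes that meet this rule are not reported here.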

Additional observations from a re-analysis of the deposited data

How the results depend on the processing

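None of the log2 fold changes of the 10 genes changed sign under any setting tried. With no threshold on the fold change, 9 in place of 5 members were called lower with overexpression, 4 higher and 4 lower in place of 2 and 0 with knockdown, 8 in place of 5 lower in KD control against parental cells, and 1 higher in place of 0 (C1S) in the difference of the effects. Over all genes this raised the calls from 3876 to 11332, from 388 to 4707, from 4405 to 12719 and from 4244 to 10096. A mean above 100 left F3 as 1 member called higher with knockdown in place of 2, because the mean of THBD was 60.7, and gave 2331, 174, 2611 and 2723 calls over all genes. Leaving out 1 library gave 0 to 1 members called lower with knockdown, C1R being the 1 without knockdown replicate 2, and 5 to 6 called lower with overexpression. There F3 was added without parental replicate 1 and took the place of PLAUR without overexpression replicate 2. TFPI had a lower log2 fold change (-3.02) than PLAT (-2.92) without parental replicate 2. RLE, upper quartile scaling, DESeq2, no filter and the gene length correction left the counts of called members in place in all 4 comparisons, and so did the fit of all 8 libraries in the overexpression and knockdown comparisons, for which it was run. The median log2 fold change of all genes with overexpression moved by 0.10 under DESeq2 and by 0.11 without a filter.

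With the replicate block, 5 members were called lower with overexpression and 2 higher with knockdown, as without it, and 3886 and 393 genes in all. By adjusted p alone it gave 5 members higher and 5 lower with knockdown in place of 4 and 4, and no filter gave 4 and 2. The deviations of same-numbered libraries correlated at 0.0350 and 0.0574. A low correlation across genes does not settle whether such libraries were handled together, and the block is an alternative only. With 2 libraries a group, the spread is estimated from few samples. For THBD, F3 and TFPI the low counts limit precision more than for PLAU, PLAT and F2R.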
